A study of Mus musculus with 12 samples.

Results

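The mucous gland and secretory genes examined here are Muc5b, Muc19, Lpo, Pigr, Dmbt1, Aqp5 and Bpifb2, which were chosen by name as a measure of gland tissue in each dissection of mouse gingiva. Of these 7 genes, 6 had a row among the 21965 genes of the count table, and all 6 stayed among the 15046 genes that passed edgeR's filter on low counts. Muc19 was not analysed here. The genes were picked with their levels in these libraries known, so the levels and the group differences of the 6 counted genes are given as a description and without p-values. Where their calls or non-overlaps are counted, the share of all tested genes stands beside the count and nothing is read from it.

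RNA came from gingiva of C57BL/6 wildtype (WT) mice and of Cybb-/- mice, which carry a disrupted gene for the catalytic subunit of the phagocyte NADPH oxidase Nox2 in every cell. In each genotype, 3 libraries were made from tissue around a maxillary molar that had carried a silk ligature for 8 days and 3 from naive mice without a ligature. All mice were below 12 weeks of age, and the 3 mice of a group were matched for age and sex. The labels put the ligature on the right side and a figure legend of the study on the left, and nothing in the sources used here says how far the dissection reached towards the palate, where the glands lie.

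Minor salivary glands sit under the oral epithelium of the palate, cheek and tongue, outside the gingiva proper. Their mucous acini release gel-forming mucins, and the same ducts carry antimicrobial proteins, peroxidase and secretory IgA, the last of which is moved through the cell by the polymeric immunoglobulin receptor. A block of tissue cut around the upper molars can hold more or less of this gland tissue. In bulk libraries, fewer gland cells and less RNA per gland cell cannot be told apart.

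RefSeq upstream sequences on GRCm38.p6 matched 4 of the 6 counted genes. They are shown because Pigr, Bpifb2 and Aqp5 moved together over the libraries and Lpo did not. The bases run 5′ to 3′ and end next to the RefSeq start, and capitals mark each match to ACGTG or to its reverse complement CACGT. For Pigr the window is chr1:130826434-130826683 on the plus strand, for Bpifb2 it is chr2:153874795-153875044 on the plus strand, and for Lpo it is chr11:87826115-87826364 on the minus strand. Of the Aqp5 window, 246 of 250 bases lie in annotated exons, so only 30 bases are printed, chr15:99590929-99590958 on the plus strand.
Pigr: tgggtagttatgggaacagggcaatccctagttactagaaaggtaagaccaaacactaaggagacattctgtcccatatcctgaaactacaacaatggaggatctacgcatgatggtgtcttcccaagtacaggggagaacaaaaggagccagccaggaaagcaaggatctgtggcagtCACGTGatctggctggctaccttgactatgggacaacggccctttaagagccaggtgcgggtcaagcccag
Bpifb2: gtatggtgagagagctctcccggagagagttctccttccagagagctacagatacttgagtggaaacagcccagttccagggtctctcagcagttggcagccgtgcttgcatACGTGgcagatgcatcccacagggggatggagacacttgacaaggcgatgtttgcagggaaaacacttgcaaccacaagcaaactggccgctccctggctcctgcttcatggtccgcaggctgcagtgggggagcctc
Aqp5: tgccgcgtgggtCACGTGgcccgggcgggt
Lpo: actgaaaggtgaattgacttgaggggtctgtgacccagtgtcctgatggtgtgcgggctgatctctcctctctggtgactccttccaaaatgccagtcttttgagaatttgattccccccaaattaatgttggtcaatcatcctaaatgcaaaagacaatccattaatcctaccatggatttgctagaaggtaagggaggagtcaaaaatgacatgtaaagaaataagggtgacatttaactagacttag

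Motifs were searched on both strands of the 250 upstream bases, and they were chosen after these sequences had been seen. CACGTG, the palindromic E-box, was found in Pigr and Aqp5 and in 6.02% of the 32851 promoters of the table. The longer ACGTGGC, which overlaps the E-box in Aqp5, was found in Bpifb2 and Aqp5 and in 2.02% of all promoters. ACGTG alone, which both of these contain, was found in Pigr, Bpifb2 and Aqp5 and in 16.6% of all promoters, and was not in the Lpo window. CAGCTG was in none of these 4 windows and in 13% of all promoters, TGACG likewise in none and in 17.8%, and TGTTTAC in none and in 3.17%.

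Library totals ran from 27958819 to 42613423 reads assigned to genes. Levels are CPM, counts per 1000000 reads of the library after scaling by edgeR's TMM factors, n counts libraries, and a contrast is a log2 fold change ± its standard error from a joint edgeR quasi-likelihood fit of the 12 libraries. As a check of the labels, Cybb itself had 4.19 to 5.60 CPM in naive and 8.41 to 15.2 CPM in ligated WT libraries. In the libraries labelled Cybb-/- it had 41.6 to 56.3 CPM and 51.1 to 63.7 CPM. Cybb was thus higher and not lower under the knockout label (adjusted p = 0.000128 in naive and 0.00420 in ligated tissue, edgeR quasi-likelihood test with Benjamini-Hochberg adjustment), so that genotype below means the label. The gingival keratins Krt13, Krt76 and Krt4 were present in every library, at 20750 to 43913 CPM, 7643 to 31842 CPM and 14134 to 26141 CPM.

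The 6 genes together took 3.30% of all counted reads in replicate 3 of naive WT and 0.00649% in replicate 1 of the same group, while the other 10 libraries lay between 0.173% and 0.575%. These 2 libraries stood apart before any comparison of groups. They fell on opposite sides of all others, and no library labelled Cybb-/- did the same. Replicate 3 of naive WT was also the library with the lowest total count.

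Muc5b (ENSMUSG00000066108, chromosome 7, 141839070 to 141873084 on GRCm38) codes for a gel-forming mucin, the structural polymer of mucous saliva. Its level was 55.6, 2732 and 28942 CPM in naive WT replicates 1, 2 and 3, and 4979, 2875 and 2495 CPM in ligated WT. In Cybb-/- tissue it was 1610, 2010 and 2477 CPM in naive and 3810, 1825 and 3163 CPM in ligated mice. The genotypes overlapped in each tissue and the tissues in each genotype, and the naive WT libraries lay both far below and far above all others. At its highest, Muc5b alone made up 2.84% of counted reads (95% Wilson interval 2.83% to 2.85%), and at its lowest 0.00552% (0.00527% to 0.00577%), where the intervals cover counting error only.

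Bpifb2 (ENSMUSG00000027481, chromosome 2, 153875045 to 153895270) belongs to the BPI fold family of secreted lipid-binding proteins. It had 7.98, 325 and 4089 CPM in naive WT and 551, 336 and 389 CPM in ligated WT. The Cybb-/- values were 243, 260 and 331 CPM in naive and 488, 242 and 322 CPM in ligated tissue. The order of the 3 naive WT libraries was that of Muc5b, and again the genotypes overlapped in each tissue and the tissues in each genotype.

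Pigr (ENSMUSG00000026417, chromosome 1, 130826684 to 130852249) codes for the polymeric immunoglobulin receptor, which carries dimeric IgA across the secretory epithelium. It had 1.16, 38.8 and 366 CPM in naive WT and 109, 78.3 and 55.5 CPM in ligated WT. In Cybb-/- tissue it had 20.8, 29.5 and 35.2 CPM in naive and 99.4, 45.4 and 80.6 CPM in ligated mice. In the Cybb-/- genotype each ligated library was above each naive one, and in WT the groups overlapped, with replicate 3 of naive tissue above all ligated libraries.

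Aqp5 (ENSMUSG00000044217, chromosome 15, 99590782 to 99594829), the apical water channel of salivary acinar cells, was the least abundant of the genes that followed Muc5b. Naive WT libraries had 0.274, 5.85 and 113 CPM and ligated WT libraries 18.6, 9.63 and 10.6 CPM. Naive Cybb-/- libraries had 7.27, 5.10 and 8.91 CPM and ligated ones 14.9, 8.88 and 10.1 CPM. The same pairs of groups overlapped as for Muc5b, the 2 Cybb-/- groups by a narrow margin. The lowest Aqp5 value rested on 9 reads.

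Dmbt1 (ENSMUSG00000047517, chromosome 7, 131032053 to 131121630) codes for a scavenger receptor cysteine-rich glycoprotein of saliva that binds bacteria. It had 0.0305, 81.1 and 121 CPM in naive WT, where the first value was a single read (95% Poisson interval 0.000771 to 0.170 CPM), and 30.7, 104 and 4.05 CPM in ligated WT. Cybb-/- libraries had 3.46, 4.02 and 4.39 CPM in naive and 32.2, 93.6 and 19.5 CPM in ligated tissue. Within ligated WT, replicate 3 was far below the other two for Dmbt1, which was not so for the genes above. The 3 naive Cybb-/- libraries were alike and sat below 2 of 3 naive WT libraries, and the ligated Cybb-/- libraries all lay above them.

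Lpo (ENSMUSG00000009356, chromosome 11, 87806428 to 87828289, minus strand) codes for lactoperoxidase, the secreted enzyme that oxidises thiocyanate with hydrogen peroxide. It was low throughout, at 0.365, 0.569 and 0.948 CPM in naive WT and 2.36, 2.54 and 2.15 CPM in ligated WT. Naive Cybb-/- libraries had 0.664, 0.555 and 0.702 CPM and ligated ones 5.77, 3.29 and 31.8 CPM. Every ligated library was above every naive one in both genotypes, and in ligated tissue every Cybb-/- library was above every WT one. Replicate 3 of ligated Cybb-/- stood apart at 1392 reads, against 83 to 221 in the other ligated libraries and 12 to 26 in the naive ones.

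**Figure D1:**
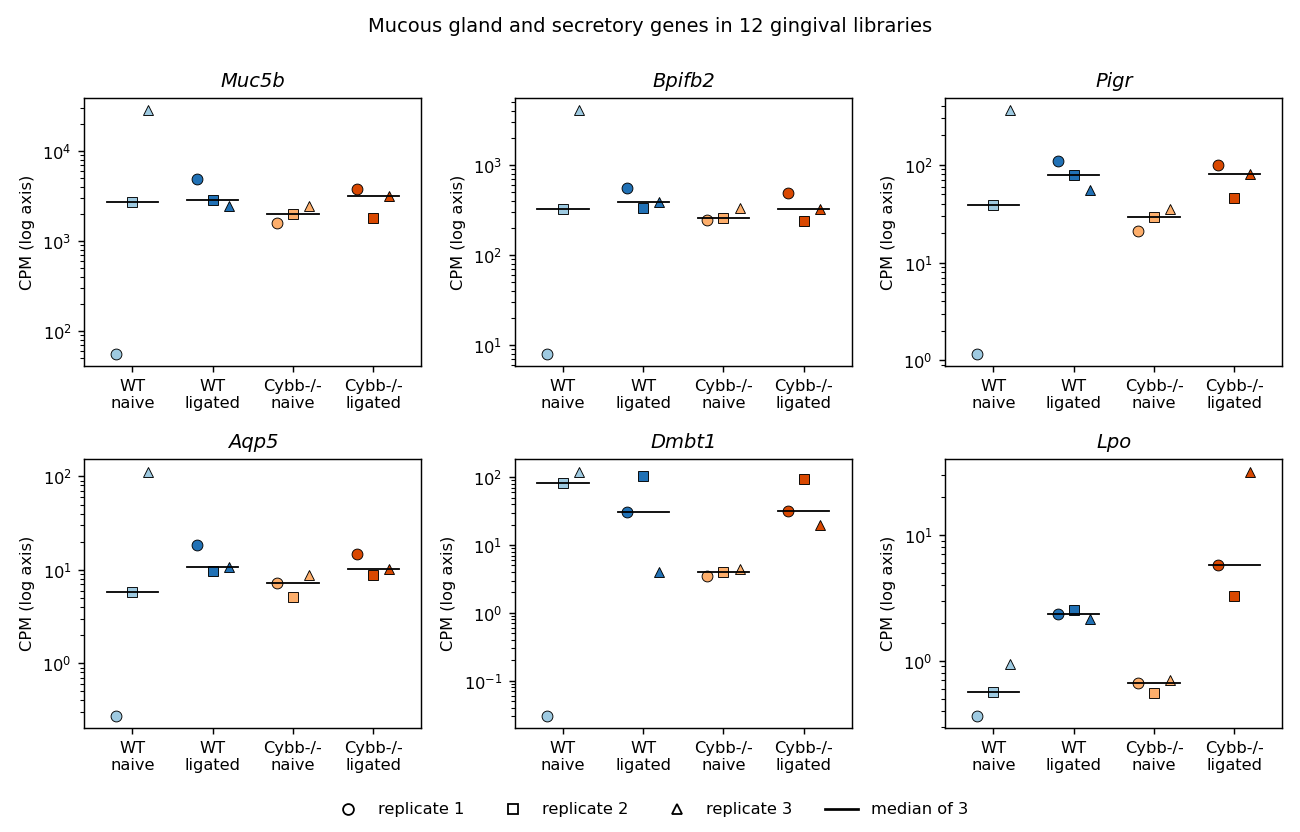
CPM on a log axis of the 6 counted genes in each of the 12 libraries, with 3 libraries per group, symbols for the replicate number and a line at each group's median. Muc5b, Bpifb2, Pigr and Aqp5 share the low replicate 1 and the high replicate 3 of naive WT, Dmbt1 is low in naive Cybb-/- libraries and in 1 library each of ligated and naive WT, and Lpo is highest in ligated Cybb-/- replicate 3 at 31.8 CPM.

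The SD of log2 CPM within naive WT was 4.56 for Muc5b, 4.52 for Bpifb2, 4.21 for Aqp5, 4.15 for Pigr and 5.88 for Dmbt1. Of the 15046 tested genes, 0 had a larger SD in that group than Dmbt1, 2 a larger one than Muc5b and 11 a larger one than Pigr. Lpo had an SD of 0.63 there, with 1732 genes above it. Within ligated Cybb-/- libraries Lpo had the highest SD of the 6, at 1.69, followed by Dmbt1 at 1.15, and Muc5b had 0.55.

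Per kilobase of exon, which allows levels of different genes to be compared, Muc5b and Bpifb2 held the first 2 places in all 12 libraries, with medians over the libraries of 175 and 157 CPM per kilobase. Pigr followed with a median of 12.5 CPM per kilobase and was in the third place in all libraries but replicate 2 of ligated Cybb-/- and of naive WT, where Dmbt1 was above it, at 13.3 against 11.3 and at 11.5 against 9.65 CPM per kilobase. Aqp5 at 3.57, Dmbt1 at 3.56 and Lpo at 0.495 CPM per kilobase changed places between libraries. Muc5b and Bpifb2 were not separated in this order, since Bpifb2 was above Muc5b in 4 of 12 libraries.

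Across the 12 libraries, Pearson's r of log2 CPM with Muc5b was 0.996 for Bpifb2, 0.98 for Aqp5, 0.98 for Pigr, 0.81 for Dmbt1 and 0.31 for Lpo, with Spearman's rho of 0.89, 0.86, 0.94, 0.66 and 0.55. These points share the library, so its total count and dissection enter both axes, and no p is given. Without replicates 1 and 3 of naive WT, r over the other 10 libraries was 0.93 for Bpifb2, 0.77 for Aqp5, 0.88 for Pigr, 0.36 for Dmbt1 and 0.44 for Lpo. Bpifb2, Aqp5 and Pigr thus followed Muc5b with and without the 2 extreme libraries, while the value for Dmbt1 rested on them. Within the 6 ligated libraries, r with Muc5b was 0.90, 0.90 and 0.97 for Bpifb2, Aqp5 and Pigr, -0.12 for Dmbt1 and 0.09 for Lpo.

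To compare secretory genes with each other within a library, each was expressed per 100 Muc5b reads of that library. Bpifb2 kept between 10.2 and 15.6 reads per 100 Muc5b reads over all 12 libraries, a 1.53-fold range while the CPM of Muc5b itself ranged 520-fold. Tff2, a trefoil peptide that is packed with mucins, kept between 6.68 and 14.0. Gp2, a glycoprotein of secretory granules, had 11.6 to 19.2. In Cybb-/- its ligated libraries, at 16.9 to 18.9, all lay above the naive ones, at 11.6 to 14.4. In WT the ligated libraries, at 14.4 to 19.2, overlapped the naive ones, at 12.8 to 15.5. In naive WT replicate 1, with the lowest level of all these genes, the ratio was 14.3 for Bpifb2 and 15.5 for Gp2, within the range of the other libraries. For Tff2 it was 14.0 there, the highest of the 12 and above the 6.68 to 12.3 of the others. Other secretory genes had wider ranges of this ratio. Smgc ranged 3.97-fold and Dcpp3 23.2-fold over the 12 libraries. Aqp5 ranged 2.27-fold and Dmbt1 31.6-fold over the 11 libraries in which each had at least 10 reads.

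Pigr had 2.18 to 2.72 reads per 100 Muc5b reads in the 6 ligated libraries and 1.26 to 2.08 in the 6 naive ones. The 3 naive WT libraries had 2.08, 1.42 and 1.26 and the 3 naive Cybb-/- libraries 1.29, 1.47 and 1.42. The ligated WT libraries had 2.18, 2.72 and 2.22 and the ligated Cybb-/- libraries 2.61, 2.49 and 2.55. Ligated and naive libraries did not overlap in either genotype. The highest naive value is that of replicate 1 of WT, which rests on 38 Pigr reads and has a 95% Poisson interval of 1.47 to 2.85 that reaches into the ligated range.

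Among 13653 genes with at least 10 reads in every library, 3 had a higher ratio to Muc5b in all ligated than in all naive libraries, which is 0.022%, and 0 had a lower one. Pigr and Agr2 were among them. Most genes cannot separate on this scale, because the Muc5b reads they are divided by run from 1827 to 794034 within naive WT, so a narrower denominator is the 27 of these genes with an r above 0.9 to the mean of the 6, which include the same 3. Agr2, the endoplasmic reticulum disulfide isomerase that mucin folding needs, had 4.86 to 7.24 reads per 100 Muc5b reads in ligated and 1.73 to 4.49 in naive libraries. As for Pigr, the highest naive value of Agr2 came from replicate 1 of WT, with 82 reads. Agr2 was picked by this pattern, after its values had been seen on this scale, and no test of it was made.

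**Figure D2:**
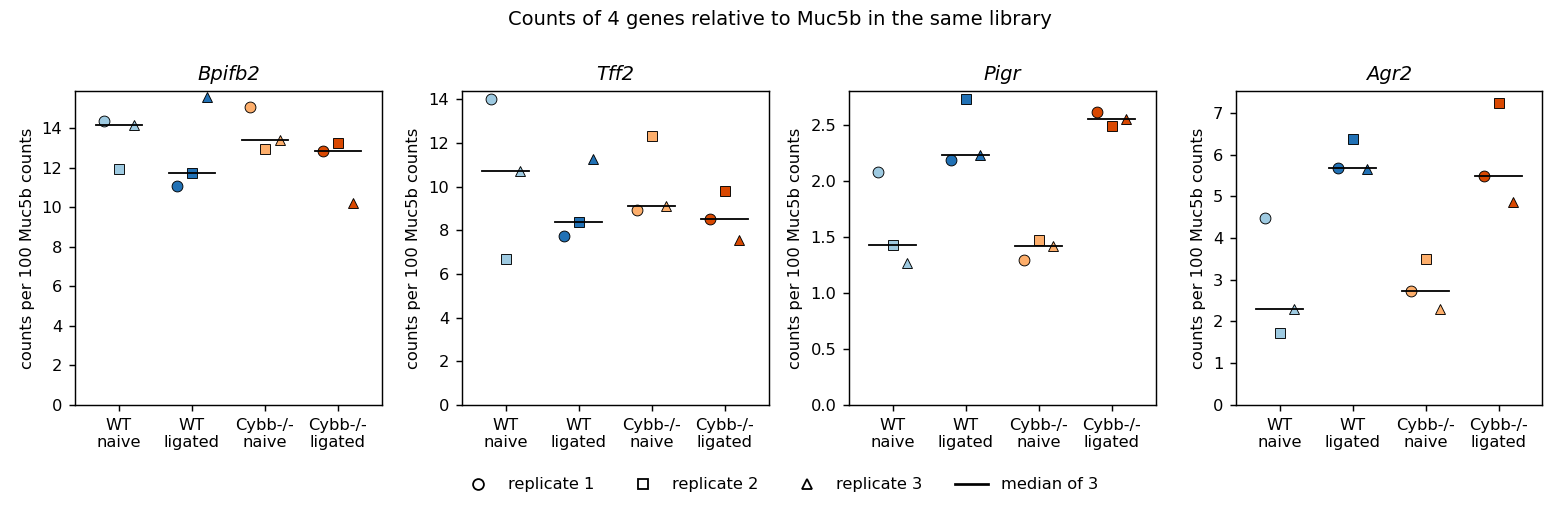
Reads of Bpifb2, Tff2, Pigr and Agr2 per 100 Muc5b reads of the same library on a linear axis from 0, for 12 libraries in 4 groups with a line at each median. Bpifb2 stays between 10.2 and 15.6 and Tff2 between 6.68 and 14.0 in all groups, while the 6 ligated libraries lie above the 6 naive ones for Pigr and for Agr2.

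Lpo did not keep a ratio to Muc5b, with 0.657 reads per 100 Muc5b reads in naive WT replicate 1, 0.00327 in replicate 3 and 1.00 in ligated Cybb-/- replicate 3. Its closest genes over the 12 libraries, looked up after the values of Lpo had been seen, were Glyat, Litaf, Tlr6, Igsf6 and Cd33, with r of 0.94 for each. Tlr6, Igsf6 and Cd33 are known from myeloid cells. The neutrophil list was likewise higher in ligated than in naive libraries. Its summed level was 329 to 899 CPM in the 6 naive libraries. It was 1315 to 3664 CPM in ligated WT and 2457 to 11550 CPM in ligated Cybb-/-. S100a8 and S100a9 made up most of this sum. All 6 genes of the list had reads in every library. The highest sum fell in ligated Cybb-/- replicate 3, the library with the highest Lpo, but Retnlg and Mmp8 were highest in replicate 2. Within ligated Cybb-/- the order of the sums was that of Lpo. Within naive WT the sum fell from 814 to 329 CPM from replicate 1 to 3, while Lpo rose. In ligated WT the highest sum was in replicate 3, which had the lowest Lpo. The part of myeloid cells in the Lpo values was not tested.

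Dual oxidases are known sources of the hydrogen peroxide that Lpo uses. Duox1, the epithelial dual oxidase, had 97.98 to 163 CPM over all libraries, and its maturation factor Duoxa1 had 41.8 to 70.0 CPM. Duox2 stayed between 1.39 and 4.05 CPM. None of the 4 dual oxidase genes was called between genotypes or between ligated and naive tissue. Ligated against naive tissue, the log2 fold change of Duox1 was -0.35 ± 0.14 in WT (adjusted p = 0.187) and -0.34 ± 0.14 in Cybb-/- (adjusted p = 0.131, edgeR).

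For Dmbt1, the closest genes by the same look-up were Muc4, Krt18, Sh3tc2, Dcpp3 and Prss2, with r between 0.89 and 0.91 over the 12 libraries. Dcpp3 belongs to the demilune cell and parotid proteins, secreted by serous demilunes. Dcpp3 had 66.2, 313 and 21.6 CPM in ligated WT and 105, 143 and 22.1 CPM in ligated Cybb-/- libraries, so that replicate 2 was the highest of both groups for Dcpp3 as for Dmbt1. In naive libraries it had 0.426, 18.03 and 136 CPM in WT and 13.2, 24.8 and 26.9 CPM in Cybb-/-. Dcpp1, Dcpp2 and Dcpp3 are near-identical neighbours, and how the counting divided reads among them is uncertain.

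Ranked by their correlation with the mean standardised level of the 6 genes over the 12 libraries, the 10 closest of the 15040 other tested genes included Slc44a4 (r = 0.98), Gp2 (0.98), Ern2 (0.98), Agr2 (0.98), Actg2 (0.98), Bpifb6 (0.97), Arhgef38 (0.97), Slc12a8 (0.97) and Chst4 (0.97). Ern2 is an endoplasmic reticulum stress sensor of mucous epithelia, Chst4 a sulfotransferase, Slc44a4 a choline transporter-like protein and Actg2 a smooth muscle actin. Bpifb6 is a member of the BPI fold family and lies next to Bpifb2 on chromosome 2, from 153900388 to 153912795. Without replicates 1 and 3 of naive WT, r for these 9 genes was between 0.83 and 0.89. In all, 53 genes had an r above 0.9 and 1 had an r below -0.9, and the points share their libraries.

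**Figure D3:**
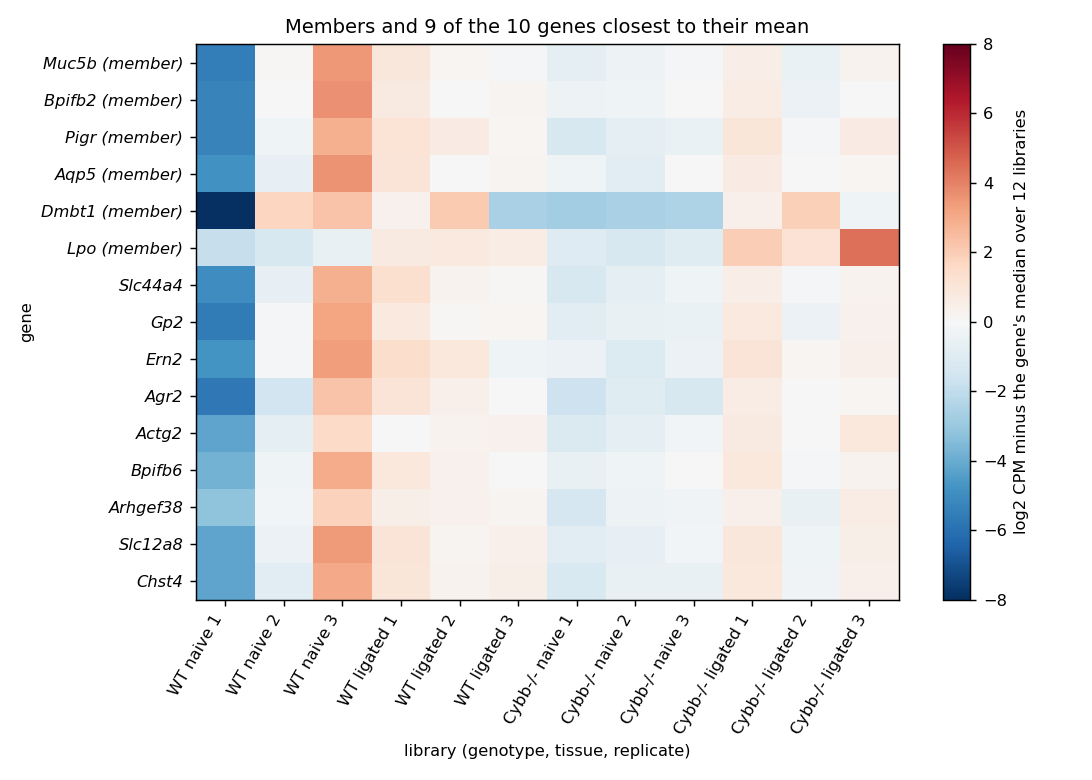
log2 CPM minus each gene's median over the 12 libraries, for the 6 counted genes and 9 of the 10 genes closest to their mean, with libraries in columns and a colour scale from -8 to 8. The first column, naive WT replicate 1, is low in all rows and the third, naive WT replicate 3, is high in all rows but Lpo, which is highest in the last column.

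Genes of known role in gland cell types were read from lists beside the 6 genes, and members of 1 list did not all move alike. Of the 14 mucous acinar genes, 13 were tested, and their summed level was 45.1, 357 and 4666 CPM in naive WT in ascending order, against 303 to 469 CPM in naive Cybb-/-, 580 to 1232 CPM in ligated WT and 538 to 870 CPM in ligated Cybb-/-. Tff2, the most abundant, had 7.80 to 3096 CPM over the libraries, Agr2 had 2.50 to 668 CPM and Dcpp3, a demilune product kept in this list, had 0.426 to 313 CPM. Smgc, an acinar secretory product whose gene overlaps the Muc19 locus on chromosome 15, had 0.792 to 187 CPM, and reads of the 2 genes may not be separable there.

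Of the 15 serous genes, 14 were counted and 8 passed the filter, and their levels differed widely. Prol1, Prb1 and Prpmp5 had 0 counts in all 12 libraries, and Car6, the salivary carbonic anhydrase, reached 0.157 CPM at most. Ltf, the iron-binding lactoferrin that neutrophils also store, was the most abundant at 97.5 to 590 CPM, Amy1 had 2.01 to 8.69 CPM and Azgp1 had 0.152 to 20.3 CPM. Of these, Azgp1 followed the 6 genes with r = 0.93 over 12 libraries and 0.62 without the 2 extreme ones.

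For fluid secretion the ion transporters Slc12a2 and Ano1 were steadier, at 54.7 to 195 CPM and 21.2 to 56.0 CPM, than the tight junction gene Cldn10, at 0.700 to 88.7 CPM. In naive WT replicate 1, where Muc5b had 55.6 CPM, Slc12a2 had 79.1 CPM. The 13 tested duct genes had r to the mean of the 6 genes between -0.43 and 0.96 over 12 libraries, with Krt18 at 0.96 and Krt8 at 0.86. Without replicates 1 and 3 of naive WT, Krt18 was at 0.83 and Krt8 at 0.73. Krt7 then went from 0.46 to -0.31 and Scnn1b from 0.11 to -0.23. Of the 3 most abundant, Ehf had 509 to 743 CPM and Elf5 36.6 to 66.1 CPM with r to the mean of the 6 genes of -0.36 and -0.43, and Wfdc2 had 19.2 to 237 CPM (r = 0.81). Krt14, Krt5 and Trp63, basal keratins and a basal transcription factor shared by myoepithelium and oral epithelium, had r of 0.37, 0.14 and -0.52. Acta2, a contractile actin of myoepithelium and vessels that was named after its values were seen, had r = 0.93 and 13.6 to 169 CPM.

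Plasma cell genes, which would be the source of the IgA that Pigr carries, were scarce. Jchain, the joining chain of secretory IgA, had 0.146 to 1.44 CPM and Derl3 0.502 to 3.03 CPM. Ccl28, the epithelial chemokine that draws IgA plasma cells into glands, had 0.761, 3.16 and 14.6 CPM in naive WT and followed the 6 genes with r = 0.93. Of the 8 genes of this list, 7 were counted and 3 passed the filter. Igha, the heavy chain of IgA itself, had no row in the count table.

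Nasal tissue lies above the palate and also makes Bpif and mucin transcripts, so its markers were read as well. Their summed level was 20.97 to 146 CPM over the 12 libraries, and in naive WT it was 82.2, 124 and 58.0 CPM in replicates 1, 2 and 3. Cyp2a5 made up most of it at 12.3 to 127 CPM, and had 65.2, 104 and 39.1 CPM in naive WT, the lowest in the library with the most Muc5b. Scgb1a1 had 5.55 to 12.5 CPM and was likewise lowest of naive WT in replicate 3. Bpifb3 had 1.21 to 7.51 CPM, Omp 0.365 to 0.984 CPM and Muc5ac 0.0305 to 2.55 CPM, and all 3 were highest in naive WT replicate 3. Of these, Muc5ac had r = 0.80 to the mean of the 6 genes. Foxj1, the regulator of motile cilia, reached 0.107 CPM at most and Bpifb9b had 0 counts throughout. Of skeletal muscle, another neighbour of the dissection, the 3 most abundant genes Tnnt3, Acta1 and Mylpf had r of -0.18, 0.17 and 0.01 to the mean of the 6 genes.

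Between genotypes in naive tissue, the log2 fold changes of Cybb-/- against WT were -2.38 ± 1.25 for Muc5b, -2.41 ± 1.25 for Bpifb2, -2.24 ± 1.15 for Pigr, -2.48 ± 1.22 for Aqp5, -4.09 ± 1.51 for Dmbt1 and 0.04 ± 0.76 for Lpo. Of the 6 genes 0 were called and 0 separated the groups, where 0.00665% of all tested genes were called and 2.08% were without overlap and higher and 3.03% without overlap and lower. Leaving out 1 library turned the sign of this difference for 5 of the 6 genes, all but Dmbt1. Without replicate 3 of naive WT it was 0.54 for Muc5b, 0.74 for Bpifb2, 0.51 for Pigr and 1.21 for Aqp5, and without replicate 1 it was -2.96, -2.99, -2.83 and -3.06. Lpo, close to 0 in the 12-library fit, was at 0.45 without replicate 3 and at -0.24 without replicate 1. With both left out, and 1 WT library taken to vary like the other groups, it was -0.43, -0.23, -0.45 and 0.28. Dmbt1 kept its sign, at -4.67, -3.36 and -4.36 without replicate 1, without replicate 3 and without both.

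In ligated tissue the log2 fold changes of Cybb-/- against WT were -0.23 ± 1.19 for Muc5b, -0.28 ± 1.18 for Bpifb2, -0.10 ± 1.10 for Pigr, -0.20 ± 1.15 for Aqp5 and 0.07 ± 1.31 for Dmbt1. The standard errors rest on a spread shared by all 4 groups, naive WT included. Without replicate 1 of ligated WT, Muc5b, Pigr and Aqp5 turned to 0.12, 0.16 and 0.14. Dmbt1 ran from -0.84 without replicate 2 of ligated Cybb-/- to 1.48 without replicate 2 of ligated WT. Lpo was at 2.53 ± 0.67, and at 0.94 without replicate 3 of ligated Cybb-/-. None of the 6 was called (0.00665% of all genes), and Lpo alone was without overlap and higher (5% of all genes).

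Ligated against naive tissue in WT, the log2 fold changes were -1.62 ± 1.22 for Muc5b, -1.79 ± 1.22 for Bpifb2, -0.74 ± 1.10 for Pigr, -1.61 ± 1.17 for Aqp5, -0.54 ± 1.31 for Dmbt1 and 1.92 ± 0.73 for Lpo. These are the same 3 naive libraries again. Without replicate 3 of naive WT the values for Muc5b, Bpifb2, Pigr, Aqp5 and Dmbt1 were 1.31, 1.35, 2.02, 2.08 and 0.19. Dmbt1 was at -1.95 without replicate 2 of ligated WT. None of the 6 was called (3.2% of all genes, 2.31% higher and 0.884% lower), and Lpo alone was without overlap and higher (13.3% of all genes).

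Ligated against naive tissue in Cybb-/- did not involve the 2 extreme libraries directly. The log2 fold changes were 0.53 ± 1.19 for Muc5b, 0.34 ± 1.18 for Bpifb2, 0.67 ± 1.17 for Aqp5, 1.40 ± 1.12 for Pigr, 3.61 ± 1.48 for Dmbt1 and 4.41 ± 0.76 for Lpo. Lpo was called (9.95% of all genes were called higher and 3.04% lower), and 3 of 6 genes, Pigr, Dmbt1 and Lpo, were without overlap and higher (18.5% of all genes). Without replicate 3 of ligated Cybb-/- the value for Lpo was 2.82, and without replicate 2 of ligated Cybb-/- the value for Dmbt1 was 2.71.

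**Figure D4:**
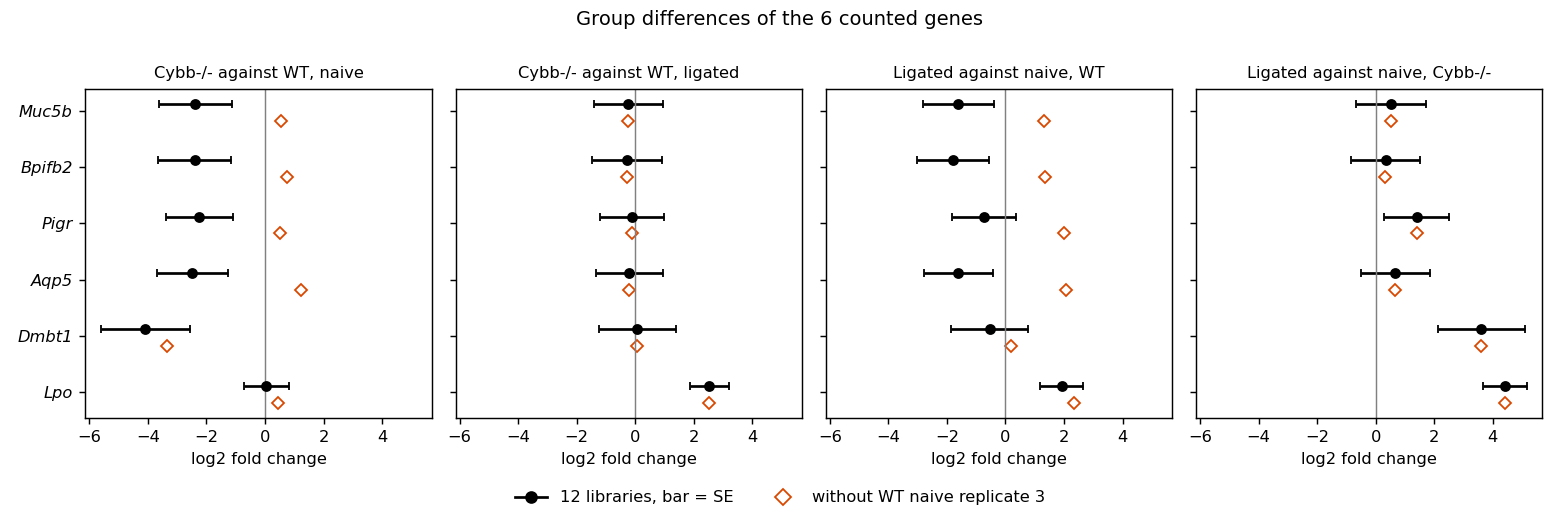
log2 fold changes of the 6 counted genes in 4 comparisons, with black points and bars for the 12-library fit and its standard error and open diamonds for the fit without naive WT replicate 3. In the panels that use naive WT, the diamonds of Muc5b, Bpifb2, Pigr and Aqp5 lie on the other side of 0, as does that of Dmbt1 for ligated against naive WT, and in the other panels points and diamonds coincide.

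The tested genes of the mucous, serous, fluid secretion and duct lists, 41 in all and none of them among the 7, were compared in the same fit. In both genotype comparisons 0 of 41 were called, where 503 genes in ligated and 306 in naive tissue had an unadjusted p under 0.05 and the edgeR call rate was 0.00665%, and DESeq2 also called 0 of these list genes. The median log2 fold change of the mucous list was -0.29 in ligated and -1.36 in naive tissue, and of the duct list 0.06 and -0.40, beside 0.01 and 0.00 over all tested genes. In naive tissue 0 of 13 mucous genes had a fold change above 0, and the WT mean there holds replicate 3, whose mucous sum was 4666 CPM.

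Ligated against naive tissue in WT, 0 of the 41 were called (3.2% of all genes). In Cybb-/- 3 of 41 were called (13% of all genes). Fcgbp, a mucus-associated Fc gamma binding protein, fell with a log2 fold change of -1.73 ± 0.50 (adjusted p = 0.0403). Its level was 24.6, 16.0 and 17.5 CPM in naive and 4.75, 9.31 and 3.49 CPM in ligated Cybb-/- libraries, and its r to the mean of the 6 genes was 0.06 over 12 libraries and -0.86 without the 2 extreme ones. Ltf rose by 1.43 ± 0.43 (adjusted p = 0.0485, edgeR). Both lost their call under some of 22 alternatives, with 12 keeping Fcgbp and 7 keeping Ltf, and adjusted p up to 0.154 and 0.144. The neutrophil list rose in the same comparison, in 6 of 6 genes with a median log2 fold change of 2.73. Within ligated Cybb-/- replicates 1, 2 and 3 the orders were opposite. Ltf had 187, 501 and 173 CPM there and the neutrophil sum was 4318, 2457 and 11550 CPM. The part of neutrophils in the Ltf values was not tested.

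Agr2 had 44.1, 70.2 and 57.0 CPM in naive and 209, 132 and 154 CPM in ligated Cybb-/- libraries, without overlap. Its log2 fold change was 1.53 ± 1.14. It was not called in the 12-library fit and was called in 2 of the alternatives, the fit of only the 6 Cybb-/- libraries and that without replicates 1 and 3 of naive WT. Since it was singled out above for a higher ratio in ligated tissue, this is a description.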

How the data were processed

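RNA-seq of gingiva was measured in 12 libraries, in 4 groups of 3 that the labels give. Raw counts per gene were deposited by the authors, made from stranded mRNA libraries aligned to GRCm38 with STAR, and no normalization was applied. The study's methods name featureCounts, while the submitters' processing notes list HTSeq 0.10.0 and FastQC 0.10.1, so the counter is not settled. Symbols and positions came from GENCODE M21 for 21939 of 21965 genes. Total counts were 27958819 to 42613423 per library.

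Genes were compared with edgeR 4.0.16 (R 4.3.3, quasi-likelihood F test, TMM, filterByExpr, 1 mean per group, all 12 libraries), adjusted by Benjamini-Hochberg over 15046 genes and called at an adjusted p under 0.05. CPM are TMM-scaled, and correlations used log2 CPM with a prior count of 2. The alternatives were DESeq2 (the tool the methods name, here in version 1.42.0), its size factors, no scaling factors, other filters, a robust fit, only the libraries compared, a replicate block and leaving out each library. On simulated data for ligated Cybb-/- against WT (14952 genes), 52% of the 2-fold and 84% of the 4-fold changes were recovered, and 6.21% of calls were false. These changes were planted in genes drawn at random, so the shares need not hold for the gland genes. All of those but Lpo had standard errors of 1.10 to 1.31 in this contrast. Ratios to Muc5b used at least 10 reads, and intervals cover counting error only. Nothing says whether a library is a separate mouse beyond the 3 mice named per group, so p-values measure the spread between libraries.

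The 7 genes and the lists were chosen with earlier results of these data known. Named genes were these 7, the 3 most abundant and every called gene of each list, the 10 genes closest to the mean of those counted, and Cybb. Other genes named, such as Smgc, Car6, Foxj1 and Acta2, were chosen after their values were seen. Muc19 was not analysed here. A few genes that this rule names are not reported here.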

Additional observations from a re-analysis of the deposited data

How the results depend on the processing

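The calls against which the gland genes are read depended on the tool and on single libraries. For Cybb-/- against WT, the 1 gene called in ligated tissue became 18 with DESeq2, 0 in a fit of only the 6 libraries compared and 0 to 2 without single libraries, and the 1 called in naive tissue became 2 with DESeq2, 0 without both extreme naive WT libraries and 1 in every fit without a single library. For ligated against naive WT, 481 calls became 1372 with DESeq2, 8 without both extreme libraries and 307 with the mean level of the 6 gland genes as a covariate, and ranged from 27 (without naive WT replicate 2) to 900 (without ligated Cybb-/- replicate 2) without single libraries. For ligated against naive Cybb-/-, the 1954 calls ranged from 837 to 2949, and for the interaction the 0 calls from 0 to 1. Of the 41 secretory list genes, DESeq2 called 2 in WT and 6 in Cybb-/-, a fit of only the 6 Cybb-/- libraries called 7, the fit without both extreme libraries called 6, and single libraries left out gave 0 to 4 in WT and 0 to 6 in Cybb-/- and 0 in the genotype comparisons and the interaction. The setting without both extreme libraries and the covariate were added after seeing the data. Of the members' fold changes under the alternatives, 596 moved by less than 1 SD and 18 by more. The SD within naive WT was 4.56 for Muc5b and 5.88 for Dmbt1, so this count cannot show stability. None that was called changed sign, but the joint fit called only Lpo, for ligated against naive Cybb-/-. Uncalled ones did turn. For Cybb-/- against WT in naive tissue, Muc5b went from -2.38 to 0.54 without naive WT replicate 3, while Dmbt1 stayed below 0. The causes were not tested.

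With the replicate number as a block, ligated against naive WT had 271 calls and the secretory lists had 1 call in Cybb-/-. Deviations of same-numbered libraries from their group means correlated between -0.23 and 0.28. Differently numbered libraries were not compared, so this range cannot say whether the numbers pair the libraries.

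With 3 libraries a group, the naive WT spread of the gland genes limits every comparison that uses that group. The lowest values of Aqp5 and Dmbt1 in it rest on 9 and 1 reads.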

Other observations

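Myh2, a skeletal muscle myosin, was the only called gene of the muscle list, at 9.24, 2.19 and 4.64 CPM in naive and 38.6, 29.3 and 42.4 CPM in ligated Cybb-/- libraries (log2 fold change 2.78 ± 0.53, adjusted p = 0.00641, edgeR). In WT it had 5.33, 5.57 and 17.8 CPM in naive and 29.5, 27.3 and 30.7 CPM in ligated libraries, without overlap. Over the 12 libraries its r with the mean of the 6 gland genes was 0.58, and 0.85 without replicates 1 and 3 of naive WT. No other gene of the muscle list was called. Its part in the gland results was not tested.

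S100a8 was the only gene of the neutrophil list called between ligated and naive WT tissue (log2 fold change 2.45 ± 0.57, adjusted p = 0.0427, edgeR), and 6 of 6 were higher in ligated tissue. In Cybb-/- the changes of the 6 genes lay between 2.16 and 2.89. The difference of the ligature change between the genotypes, the interaction, was not called for any gene. Of 15046 genes 0 were called, with 342 at an unadjusted p under 0.05 in edgeR, and 0 with DESeq2. In ligated tissue, 6 of 6 neutrophil genes were higher in Cybb-/- than in WT, and 0 were called. Their median log2 fold change was 1.33.

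The Y chromosome genes Eif2s3y, Ddx3y and Kdm5d had reads in all 12 libraries, at 44.0 to 128 CPM, 43.3 to 110 CPM and 29.4 to 50.4 CPM.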
